A study of Homo sapiens with 9 samples.

Results

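The baseline transcriptome of OVCAR4 cells was read from the 3 scramble (scr) control libraries of the series, out of 9 libraries in all, chosen by their labels alone. OVCAR4 is an established cell line that the labels class as ovarian serous adenocarcinoma, of wild-type (WT) genotype, and the study counts it among lines of high-grade serous origin. The cells had been transduced with a lentiviral pLKO.1 scr shRNA, a hairpin that served as the control of the series, and were selected with puromycin for 3 days. They were grown as a single cell type in RPMI-1640 with serum, glutamine and insulin, so the libraries hold no stroma, vessels or immune cells by design, and each level below is that of a selected, vector-bearing culture. The remaining 6 libraries carried shRNAs against MPZL3 and were not compared here.

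High-grade serous carcinoma is thought to arise mostly from the secretory epithelium of the fallopian tube. It is known for the Müllerian lineage factor PAX8, the transcription factor WT1, the mucin MUC16 that sheds the CA125 antigen, simple-epithelial keratins such as KRT7, and the adhesion molecule EPCAM. Its genome is marked by copy-number gains that often include CCNE1, MYC and MECOM.

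The 3 libraries held 15424355, 21757321 and 15040102 counts in genes for scr replicates 1, 2 and 3, and 23611, 24931 and 23994 genes had at least 1 count. Levels are given in TPM, the length-normalised share of a library's transcripts, which divides each count by the gene's length and scales every library to the same sum, with the SD over n = 3 libraries unless another number is named. A gene was called expressed at a TPM of at least 1 in each library, and silent at 0 counts in each. Pearson's r of log2 TPM between libraries, across genes and thus not over independent replicates, ranged from 0.990 to 0.995. Replicate 1 stood apart: the chi-square per gene against sampling noise was 8.66 and 9.88 for the pairs with replicate 1, and 3.17 for replicates 2 and 3. The biological coefficient of variation, the spread between libraries beyond counting noise, was 0.0882 with all 3 libraries and 0.0495 without replicate 1.

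Of the 5 lineage markers, 4 were expressed and WT1 was nearly absent. On hg38, KRT7 lies at chr12:52232520-52252186 on the plus strand and EPCAM at chr2:47345158-47387601 on the plus strand, while PAX8 lies at chr2:113215997-113278950, MUC16 at chr19:8848844-8981342 and WT1 at chr11:32387775-32435630 on the minus strand. KRT7, an intermediate filament protein of simple epithelia, was at 1539, 1518 and 1532 TPM in replicates 1 to 3 (mean 1530 ± 10.6), and at a mean of 2735 TPM, 1.79-fold higher, when the length of the longest transcript replaced the merged exon length. EPCAM, a surface glycoprotein of epithelial cells, was at 554.5, 505.4 and 511.9 TPM. PAX8, the Müllerian lineage factor, was at 98.7, 100.8 and 99.8 TPM (99.8 ± 1.06), and the libraries differed by less for PAX8 than for EPCAM. MUC16 was at 24.5, 29.9 and 29.8 TPM over a merged exon length of 43830 bases, lowest in replicate 1. WT1 had 4 counts in each library, or 0.205, 0.148 and 0.212 TPM, against 3463, 4909 and 3381 counts of PAX8. Of the 5 markers that go with the label of serous adenocarcinoma, 4 were thus expressed, beside 59.3% of protein-coding genes, and WT1 was not. KRT7 and EPCAM mark epithelia and PAX8 the Müllerian lineage, so their levels do not single out the serous type. The order KRT7, EPCAM, PAX8, MUC16, WT1 was the same in the 3 libraries, with no overlap between neighbours.

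The upstream sequences of PAX8 and WT1 are shown because these lineage factors lie at opposite ends of the scale, and that of TWIST2, a factor of epithelial to mesenchymal transition (EMT), because it had 0 counts. Each is the RefSeq promoter window (GRCh38.p14) cut to the bases before the first annotated base of the gene, on the gene's strand, 5′ to 3′, with CG dinucleotides, where DNA methylation falls, in capitals. PAX8 lies on the minus strand and the bases are chr2:113278951-113279171, WT1 lies on the minus strand and the bases are chr11:32435631-32435789, and TWIST2 lies on the plus strand and the bases are chr2:238847835-238848031.
PAX8: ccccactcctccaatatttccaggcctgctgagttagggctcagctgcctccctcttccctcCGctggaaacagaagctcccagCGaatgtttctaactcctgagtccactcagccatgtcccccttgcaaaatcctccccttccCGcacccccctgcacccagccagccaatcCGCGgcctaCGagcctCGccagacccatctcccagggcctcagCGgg
WT1: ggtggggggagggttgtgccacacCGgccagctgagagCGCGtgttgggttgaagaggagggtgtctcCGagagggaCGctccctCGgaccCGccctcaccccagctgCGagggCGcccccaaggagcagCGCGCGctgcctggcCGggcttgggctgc
TWIST2: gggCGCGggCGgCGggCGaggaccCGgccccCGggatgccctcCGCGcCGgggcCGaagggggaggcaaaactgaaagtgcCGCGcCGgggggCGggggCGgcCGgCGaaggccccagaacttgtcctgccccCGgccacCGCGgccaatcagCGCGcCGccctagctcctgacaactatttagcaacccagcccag
The printed bases hold 8 CG dinucleotides for PAX8, 13 for WT1 and 24 for TWIST2. Over the whole 300-base windows the number was 13, 21 and 29, beside a median of 22 over the 15446 protein-coding genes with a window. No methylation was measured, so these letters describe the sequence and not its state in the cells. No entry was found for EPCAM and KRT7.

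The wider list of 38 serous ovarian carcinoma markers showed the same high epithelial level with gaps among the hormone receptors. Of the 38 markers, 33 were expressed (86.8%), beside 11828 of 19951 protein-coding genes (59.3%), and the median of the list was 113 TPM against 4.5 TPM over all protein-coding genes. Next to KRT7, high members were SLPI, a secreted protease inhibitor, at 1332 ± 286 TPM, and the keratins KRT19 at 1237 ± 73.2 TPM and KRT8 at 699.7 ± 40.7 TPM. SLPI was at 1014 TPM in replicate 1 and at 1414 and 1568 TPM in replicates 2 and 3. The 5 markers that were not expressed were WT1, ESR1, PGR, KLK11 and LYPD1. The oestrogen receptor ESR1 had 12, 11 and 19 counts (0.201 ± 0.0908 TPM), and the progesterone receptor PGR had 18, 42 and 8 counts (0.258 ± 0.151 TPM). LYPD1 shares exonic bases with GPR39, and 51.1% of its bases are its own. KLK11 ranged from 0.271 to 1.12 TPM and passed the threshold in replicate 3 alone.

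**Figure D1:**
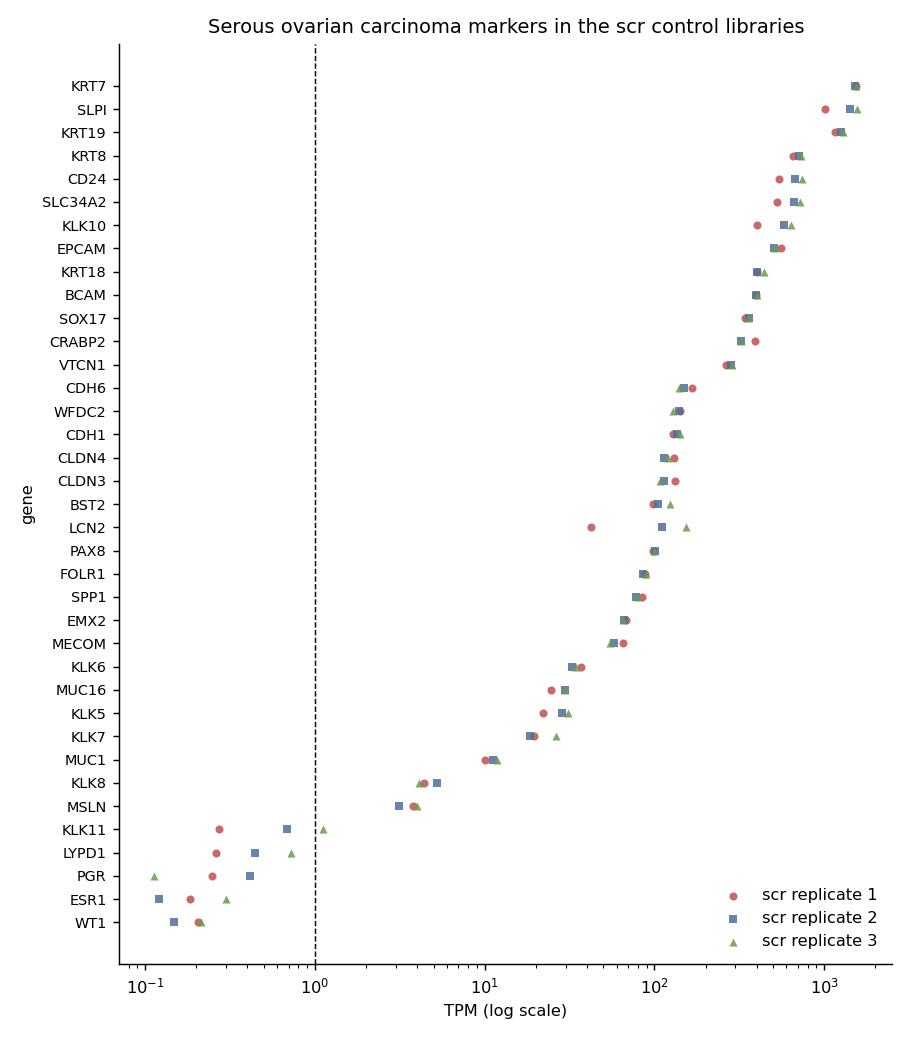
Levels of 37 of the 38 serous ovarian carcinoma markers in TPM on a log axis, with a point for each of the 3 scr control libraries and a dashed line at 1 TPM. The genes are ordered by mean, from KRT7, at 1518 to 1539 TPM, to WT1, at 0.148 to 0.212 TPM, the lowest single point is that of PGR in replicate 3 (0.113 TPM), and LCN2 has the widest gap between replicate 1 (42.5 TPM) and replicates 2 and 3 (110.7 and 152.6 TPM).

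Members of the epithelial structural families differed widely in level. Of 55 keratins, 15 were expressed (27.3%) and 21 were silent (38.2%), beside 59.3% and 18.9% of protein-coding genes, and KRT7 made up 32.0% of the summed keratin TPM, followed by KRT19, KRT8, KRT17 (501.2 ± 74.1 TPM) and KRT18 (414.9 ± 21.8 TPM). KRT8 and KRT18 pair with each other in the filaments of simple epithelia. Of 24 claudins, the sealing proteins of tight junctions, 11 were expressed (45.8%), led by CLDN1 (478.5 ± 64.4 TPM), CLDN16 (184.0, 201.5 and 199.6 TPM), CLDN7 (188.8 ± 7.75 TPM), CLDN4 (121.8 ± 8.69 TPM) and CLDN3 (117.7 ± 12.8 TPM). Among 23 cadherins, 8 were expressed (34.8%) and the highest were CDH6 (151.9 ± 14.2 TPM) and CDH1, which encodes E-cadherin (135.6 ± 6.35 TPM), and CDH3, which encodes P-cadherin, was at 60.3 ± 3.36 TPM. CDH6 was at 167.3, 149.2 and 139.3 TPM and CDH1 at 129.1, 136.1 and 141.8 TPM, so replicate 3 held them in the opposite order to replicates 1 and 2. Of 15 kallikreins, secreted serine proteases, 7 were expressed (46.7%), and KLK10 alone made up 83.4% of their TPM at 400.9, 576.9 and 633.6 TPM. Of 17 mucins, 4 were expressed (23.5%), namely MUC16, MUC20 (18.5 ± 1.80 TPM), MUC1 (11.03 ± 0.859 TPM) and MUC4 (2.21 ± 0.249 TPM). Among 44 collagens, 18 were expressed (40.9%), and the chains of basement membrane collagen COL4A1 (226.3 ± 37.7 TPM), COL4A2 (224.0 ± 32.0 TPM) and COL18A1 (186.0 ± 11.8 TPM) stood above the fibrillar chain COL1A1 (4.31 ± 0.472 TPM).

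Markers of other cell types were mostly at or near 0, while 59.3% of all protein-coding genes were expressed and 18.9% had 0 counts. Of 14 leukocyte markers, 2 were expressed, among them the receptor of colony stimulating factor, CSF1R (1.56 ± 0.485 TPM), while 7 had 0 counts and the summed list ranged from 4.21 to 5.86 TPM. CD3E, CD3D, CD2 and MS4A1, which define T and B cells, had 0 counts in each library, and the common leukocyte antigen PTPRC was at 0.177 ± 0.0546 TPM. Of 10 fibroblast markers, LUM (4.74 ± 0.986 TPM) and COL1A1 were expressed, COL3A1, DCN, FAP and POSTN had 0 counts, and the sum ranged from 9.35 to 11.8 TPM. Of 10 endothelial markers, ERG (4.55 ± 0.677 TPM), CDH5 (2.18 ± 0.403 TPM) and VWF (1.54 ± 0.187 TPM) were expressed, with a sum of 9.01 to 9.71 TPM, and the vascular receptors KDR and TEK were at 0.0628 and 0.0152 TPM on average. Of 6 erythroid markers, HBA1 had 0, 16 and 3 counts and none passed the threshold in each library. Of 8 neural markers MBP (12.04 ± 0.555 TPM) and CHGA (1.45 ± 0.332 TPM) were expressed, and of 6 muscle markers ACTG2 (3.40 ± 1.05 TPM).

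Among lineages close to the ovary the picture was mixed. The counts below stand beside 59.3% of protein-coding genes expressed and 18.9% with 0 counts. Of 6 fallopian secretory markers, 4 were expressed (KRT7, PAX8, the Müllerian factor SOX17 at 352.4 ± 10.4 TPM, and MSLN, mesothelin, at 3.65 ± 0.448 TPM). Of 10 markers of ciliated tubal cells, 2 were expressed, CAPS (21.7 ± 1.15 TPM) and CCDC78 (2.43 ± 0.668 TPM), and the master regulator of motile cilia, FOXJ1, was at 0.409 ± 0.145 TPM. Of 8 mesothelial markers, UPK3B (155.7 ± 4.53 TPM) made up 97.1% of the summed TPM and LRRN4 was at 3.74 ± 0.425 TPM, while the defining marker CALB2, calretinin, had 0 counts in each library, which allows up to 0.111 TPM over the 3 libraries. Of 9 sex cord and granulosa markers, AMH (6.28, 12.6 and 8.53 TPM) and FOXL2 (2.26 ± 0.941 TPM) were expressed. Of 9 germ cell markers, TFAP2C (22.2 ± 1.93 TPM), POU5F1 (19.3 ± 4.16 TPM) and SALL4 (2.04 ± 0.840 TPM) were expressed, and NANOG, DPPA3, DDX4 and DAZL had 0 counts. POU5F1 has processed copies elsewhere in the genome and shares exonic bases with TCF19, so its level is uncertain. Of 15 clear cell and mucinous markers, 4 were expressed, among them VIL1 (3.64 ± 0.145 TPM). Of 7 hepatocyte markers, SERPINA1 (19.8, 37.7 and 42.1 TPM) and APOA1 (12.4 ± 2.03 TPM) were expressed, and albumin, ALB, was at 0.0424 TPM on average. Of 12 lung, breast, thyroid and squamous markers, TRPS1 (8.41 ± 1.12 TPM) and KRT5 (1.52 ± 0.227 TPM) were expressed, GATA3 had a mean of 0.0148 TPM, and SFTPC, SCGB2A2 and DSG3 had 0 counts.

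Protein-coding genes were sorted into ranges of mean TPM, each 10 times wider than the one below, and few genes carried most of the transcripts. The 60 genes of the highest range (0.301% of all protein-coding genes) held 31.7% of all TPM. They include the 13 mitochondrially encoded mRNAs, which alone held 21.4% of all TPM. A further 1437 genes of the next range, from 100 TPM up, held 34.2%, and the 6642 genes between 10 and 100 TPM, the most populated range, held 23.1%. The 4082 genes between 1 and 10 TPM held 1.85%, and 3969 genes had counts but a mean below 1 TPM and together held 0.107%. Of the 19951 protein-coding genes, 3761 were silent (18.9%). Without replicate 1, 12003 protein-coding genes were expressed, and 33 serous markers, 24 nuclear receptors, 30 receptor tyrosine kinases and 200 members of 16 transcription factor families. At the threshold itself, 84 genes had their lowest library between 1 and 1.1 TPM, and 112 genes lay just below it, between 0.9 and 1 TPM.

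**Figure D2:**
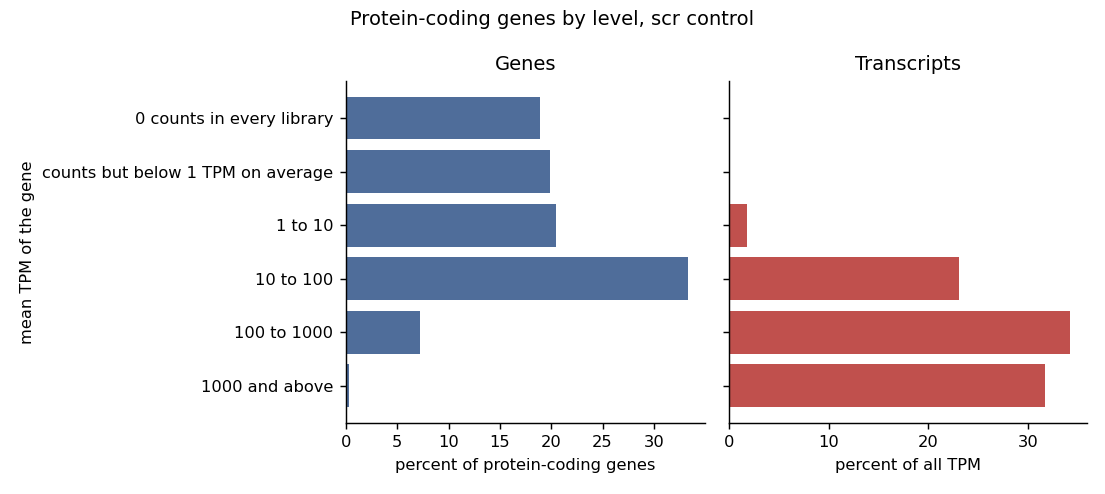
Protein-coding genes grouped by mean TPM over the 3 scr control libraries, with the percent of genes in each range as bars on the left and the percent of all TPM they hold on the right. The 60 genes of the highest range are 0.301% of the genes and hold 31.7% of the TPM, of which the 13 mitochondrially encoded mRNAs hold 21.4% of all TPM.

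The most abundant transcripts came from mitochondrial DNA, whose mRNAs carry poly-A tails and are captured on poly-T beads. The 13 mitochondrially encoded mRNAs, subunits of the respiratory chain and of ATP synthase, took 21.6%, 21.0% and 21.5% of TPM in replicates 1 to 3, led by the cytochrome c oxidase subunits MT-CO1 (32930 ± 242.7 TPM), MT-CO3 (32370 ± 1210 TPM) and MT-CO2 (30710 ± 1271 TPM). The same 13 genes held 6.02% of the counts, because TPM weights short genes up. The 100 most abundant genes held 39.2% of TPM (± 0.645), or 20.8% of the counts.

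Among the 25 most abundant nuclear protein-coding genes, iron storage, the cytoskeleton and protein synthesis stood at the top. FTL, the ferritin light chain, was at 7204, 7762 and 7983 TPM, and FTH1, the heavy chain, was at 3899, 5329 and 5564 TPM, with replicate 1 lowest for both. Of the 3 gene lengths tried, FTL was the first with the merged exon length alone: with the length of the longest transcript, ACTG1 (6758 TPM) and FTH1 (6240 TPM) stood above FTL (5862 TPM), and with unshared exonic bases FTH1 (12540 TPM) stood above FTL (7315 TPM). The actins ACTG1 (6647 ± 127.1 TPM) and ACTB (4077 ± 124.6 TPM) and the actin-binding thymosins TMSB10 (6428 ± 235.1 TPM) and TMSB4X (4316 ± 178.2 TPM) filled most of the next places. The elongation factor EEF1A1 was at 3881 ± 213.9 TPM. The ribosomal proteins RPL8 (3002 ± 93.2 TPM), RPL41 (2617 ± 187.3 TPM), RPL13A (2065 ± 39.4 TPM), RPS2 (1806 ± 67.5 TPM) and RPS27 (1696 ± 187.7 TPM) followed. All 86 cytosolic ribosomal protein genes together held 4.94% of TPM (± 0.203), and 84 of them were expressed. The glycolytic enzymes GAPDH (2987 ± 106.5 TPM) and ENO1 (1776 ± 65.6 TPM) and the mitochondrial ATP synthase subunit ATP5F1B (1920 ± 36.6 TPM) were also in this group. The glutathione transferase GSTP1, a detoxifying enzyme, reached 2671 ± 269.6 TPM and the RNA-binding protein YBX1 2368 ± 73.8 TPM. The chaperones CALR (2054 ± 147.1 TPM), HSPB1 (1938 ± 129.3 TPM), HSP90AA1 (1869 ± 118.8 TPM) and HSP90AB1 (1835 ± 64.0 TPM) lay close together. S100A11, a calcium-binding protein, was at 2059 ± 256.9 TPM and the actin-associated TAGLN2 at 1805 ± 60.2 TPM. The secreted proteins IGFBP3, which binds insulin-like growth factors (1745 ± 109.4 TPM), and CYR61, a matricellular protein and known target of the YAP pathway (1605 ± 170.3 TPM), were the members of this group that the cells release. With the length of the longest transcript, RPL8 was at 4770 TPM and ENO1 at 2817 TPM. From RPL13A to CYR61, neighbours in this order differed by less than the larger of their SDs, so their order is not firm.

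**Figure D3:**
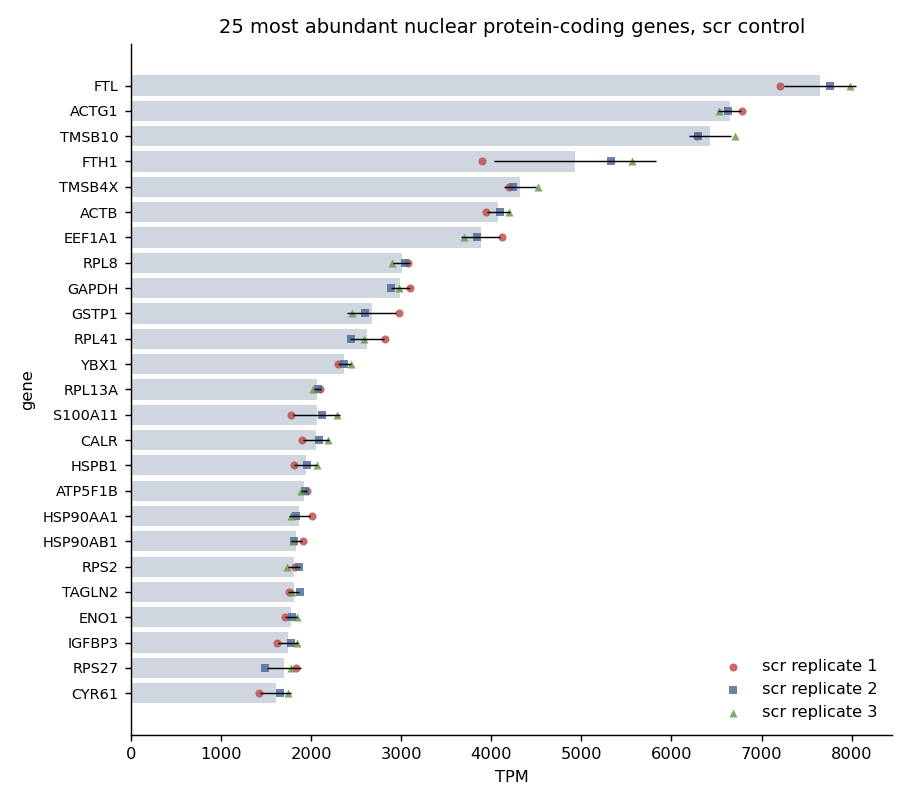
The 25 nuclear protein-coding genes with the highest mean TPM, as bars from 0 with the SD over 3 libraries as error bars and a point for each library. With the merged exon length used here FTL is highest at 7650 TPM, other gene lengths put ACTG1 or FTH1 above it, and CYR61 closes the list at 1605 TPM, and FTH1 has the widest spread, from 3899 to 5564 TPM.

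Outside the protein-coding class, the 5 most abundant nuclear genes were near-copies of abundant genes or small cytoplasmic RNAs. RPS28P7 (2677 ± 141.9 TPM), TMSB4XP8 (1541 ± 18.0 TPM), MTATP6P1 (1038 ± 180.1 TPM) and RPL9P9 (975.2 ± 53.9 TPM) are annotated as pseudogenes, and RN7SL2 (873.7 ± 193.1 TPM) encodes an RNA of the signal recognition particle. RPS28P7 is 210 bases long, TMSB4XP8 135 bases, and a read from the parent gene could be assigned to either locus, so these levels are uncertain. Pseudogenes as a class held 2.86% of TPM, and lincRNA and antisense genes held 1.05%, with 1192 of 13212 of them expressed.

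Nuclear receptors, ligand-gated transcription factors, were led by an orphan member. Of 48, 22 were expressed (45.8%, beside 59.3% of protein-coding genes), with a list median of 1.04 TPM against 4.5 TPM over all protein-coding genes. NR2F6, an orphan receptor of the COUP-TF group, was at 543.7, 512.8 and 500.8 TPM and made up 53.7% of the family's TPM. The liver X receptor NR1H2 (105.4 ± 8.39 TPM), the oestrogen-related receptor ESRRA (96.5 ± 4.81 TPM), the retinoid X receptor RXRB (34.0 ± 1.47 TPM) and PPARD, a fatty acid sensor (30.7 ± 0.721 TPM), came next. NR1H2 and ESRRA ranged from 95.8 to 111.3 and from 92.3 to 101.7 TPM and overlapped. NR0B1, NR0B2, PPARG, RORB, NR1H4 and RXRG had 0 counts.

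Of 58 receptor tyrosine kinases, growth factor receptors of the cell surface, 30 were expressed (51.7%, beside 59.3% of protein-coding genes). Their list median was 1.46 TPM. Ephrin receptors led the family: EPHB4 was at 134.4, 132.7 and 123.7 TPM and EPHA2 at 127.1, 120.9 and 130.6 TPM, ranges that overlapped. PTK7, a Wnt co-receptor (80.7 ± 2.35 TPM), MET, the receptor of hepatocyte growth factor (70.6 ± 8.92 TPM), and the collagen receptor DDR1 (64.2 ± 7.27 TPM) followed, and MET was at 60.4 TPM in replicate 1 and at 74.6 and 76.9 TPM in the others. FLT3 and NTRK3 had 0 counts.

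Receptors of developmental ligands were expressed for most members. The share was 81.8% for Wnt and Notch receptors and 78.6% for the TGF-beta family, beside 59.3% of protein-coding genes. Of 22 Wnt and Notch receptors and co-receptors, 18 were expressed, led by FZD6 (90.3 ± 2.70 TPM), NOTCH3 (88.2 ± 15.7 TPM), NOTCH2 (74.9 ± 4.40 TPM), LGR4 (56.6 ± 5.87 TPM) and LRP5 (54.9 ± 2.46 TPM). NOTCH3 was highest in replicate 1 (106.1 TPM), against 77.3 and 81.0 TPM in replicates 2 and 3. Of 14 receptors of the TGF-beta family, 11 were expressed, and the type II receptor TGFBR2 (135.6 ± 4.35 TPM) held 51.0% of their TPM, above its partner TGFBR1 (19.2 ± 0.899 TPM) and the BMP receptors BMPR1A (29.4 ± 1.05 TPM) and BMPR2 (27.8 ± 0.446 TPM). The type II receptor of anti-Müllerian hormone, AMHR2, had 0 counts.

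Of 26 integrins, which bind extracellular matrix, 15 were expressed (57.7%), close to the 59.3% of protein-coding genes. The summed level of the integrins was 1200 TPM in replicate 1 and 1409 and 1446 TPM in replicates 2 and 3. ITGB1, the shared beta chain, was at 529.7 ± 37.3 TPM, ITGAV, the alpha chain of vitronectin receptors, at 257.5 ± 29.5 TPM, and its partners ITGB3 at 123.3 ± 11.8 TPM, ITGB6 at 121.7 ± 31.5 TPM and ITGB8 at 90.9 ± 3.79 TPM. ITGB6 was at 85.4 TPM in replicate 1 and at 138.8 TPM or more in the others. Adhesion G protein-coupled receptors were expressed for 9 of 29 members, led by ADGRG1 (144.7 ± 9.11 TPM) and ADGRL2 (95.3 ± 5.42 TPM).

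Among cytokine receptors, the highest levels were those of TNFRSF12A and IL1R1. Of 44 interleukin receptor genes, 24 were expressed (54.5%) and 8 were silent (18.2%), beside 59.3% and 18.9% of protein-coding genes. They were led by IL1R1, the signalling receptor of interleukin-1 (157.4 ± 2.10 TPM), IL13RA1 (85.2 ± 4.99 TPM), the decoy receptor IL1R2 (72.56 ± 3.8 TPM) and IL6ST, the shared gp130 chain (39.2 ± 3.41 TPM), and IL2RA, IL2RB, IL7R and CSF2RB had 0 counts. Of 29 members of the TNF receptor family, 13 were expressed (44.8%). TNFRSF12A, the receptor of TWEAK (273.9 ± 20.1 TPM), held 47.0% of their TPM, followed by TNFRSF1A (61.0 ± 1.75 TPM), LTBR (59.5 ± 0.856 TPM), TNFRSF21 (55.6 ± 6.34 TPM) and CD40 (44.3 ± 13.8 TPM). Of 10 Toll-like receptors, TLR2 (3.77 ± 0.393 TPM) and TLR3 (1.503 ± 0.267 TPM) were expressed. Of 22 chemokine receptors, 3 were expressed, namely ACKR2 (6.19 ± 0.672 TPM), ACKR3 (4.08 ± 1.15 TPM) and CXCR4 (1.66 ± 0.311 TPM), and ACKR2 and ACKR3 are scavenging receptors. Of 11 receptors of lysophosphatidic acid and sphingosine 1-phosphate, 6 were expressed, led by LPAR2 (21.0 ± 1.96 TPM), S1PR5 (15.1 ± 3.53 TPM) and S1PR2 (13.5 ± 1.19 TPM).

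Surface proteins against which antibodies and antibody-drug conjugates have been made were expressed for 16 of 19 genes. This was 84.2%, beside 59.3% of protein-coding genes, with a list median of 80.7 TPM against 4.5 TPM over all protein-coding genes. Among the highest were the phosphate transporter SLC34A2 (638.8 ± 98.2 TPM), the transferrin receptor TFRC (400.4 ± 10.5 TPM), the B7 family member VTCN1 (278.1 ± 11.7 TPM) and CD47, a ligand that restrains phagocytosis (241.5 ± 23.7 TPM). SLC34A2 was at 530.1 TPM in replicate 1 and at 665.1 and 721.1 TPM in replicates 2 and 3. The range of TFRC, 389.6 to 410.5 TPM, did not reach that of SLC34A2 or VTCN1.

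Transcription factors were expressed about as often as other genes. Of the 346 members of 16 families, 196 were expressed (56.6%) and 62 were silent (17.9%), beside 59.3% and 18.9% of protein-coding genes. Over the 1553 genes that the deposited table assigns to a factor family, 975 were expressed (62.8%). The expressed members of the 16 families had a median of 12.6 TPM, against 20.2 TPM over all expressed protein-coding genes. The families differed widely: all 21 MYC and E2F family genes and all 12 TEAD and SMAD genes were expressed, against 2 of 8 EMT factors.

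**Figure D4:**
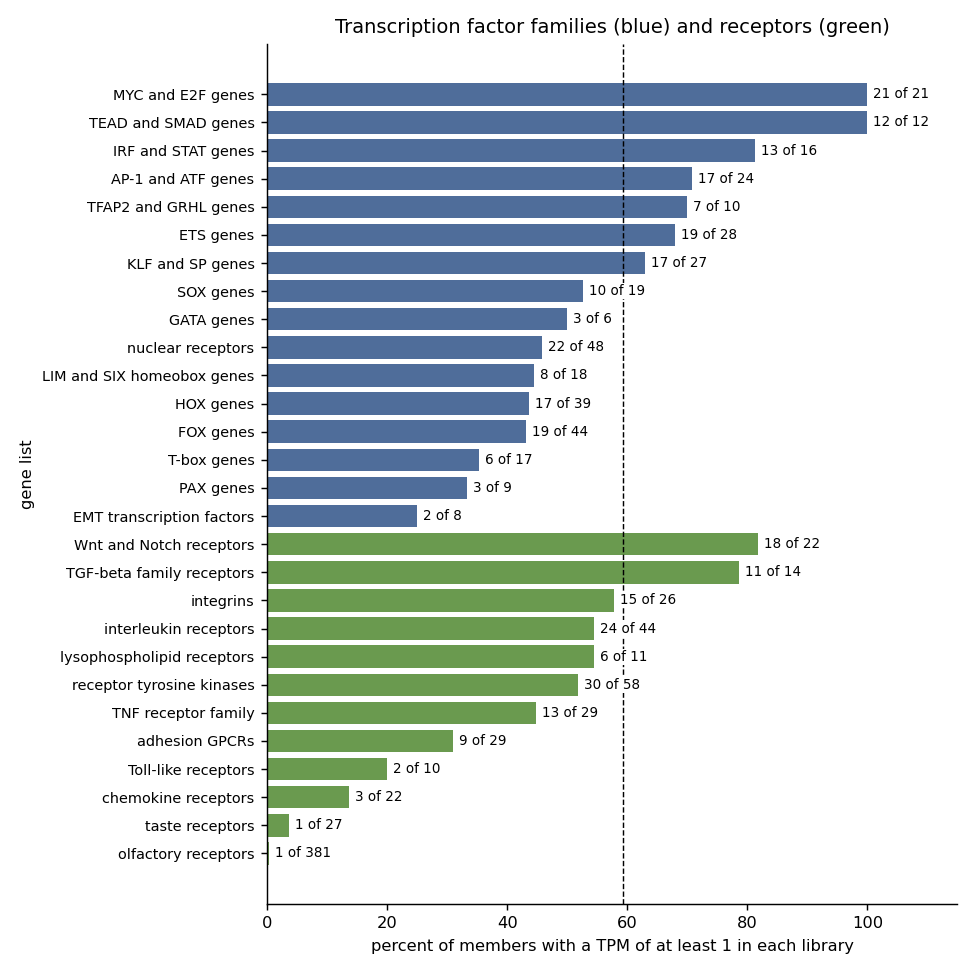
Percent of the members of 16 transcription factor families (blue) and 12 receptor lists (green) with a TPM of at least 1 in each of the 3 scr control libraries, with the counts beside the bars and a dashed line at the 59.3% of all protein-coding genes. The bars run from 21 of 21 MYC and E2F genes to 1 of 381 olfactory receptors.

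The 12 factors highest in mean TPM over these 16 families alone were NR2F6, SOX17, ATF4, JUND, TFDP1, JUNB, TEAD2, JUN, E2F1, NR1H2, ATF6B and SOX4. The deposited table assigns further genes to factor families outside these 16, and some of them stood higher. Among them, YBX1 (2368 TPM), ID1 (1185 TPM) and MYBL2 (604.6 TPM) were each above NR2F6. SOX17, a Müllerian and endoderm factor, was at 340.5, 360.0 and 356.5 TPM. ATF4, which drives the integrated stress response, was at 330.0, 288.6 and 283.2 TPM, highest in replicate 1. The AP-1 subunits JUND (213.8 ± 13.9 TPM), JUNB (155.9 ± 4.53 TPM) and JUN (116.4 ± 9.49 TPM) were accompanied by FOSL2 (85.6 ± 14.2 TPM). The cell cycle factors TFDP1 (201.0 ± 3.42 TPM) and E2F1 (115.2 ± 3.11 TPM) form a DNA-binding dimer. TEAD2, a partner of YAP, was at 124.4 ± 9.91 TPM, the endoplasmic reticulum stress factor ATF6B at 103.2 ± 5.95 TPM and SOX4 at 101.6 ± 3.10 TPM. PAX8 followed directly below at 99.8 TPM, within the range of SOX4 (98.6 to 104.8 TPM).

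HOX genes, which set position along the body axis, were expressed from 1 cluster above all. Of 39 HOX genes, 17 were expressed (43.6%) and 12 were silent (30.8%), beside 59.3% and 18.9% of protein-coding genes. The HOXB cluster on chromosome 17 had 9 of 10 genes expressed and held 85.2% of all HOX TPM (202.0 ± 5.83 TPM), with HOXB7 at 38.9, 39.6 and 41.0 TPM, HOXB2 at 37.0 ± 2.47 TPM, HOXB9 at 34.9 ± 1.96 TPM, HOXB8 at 29.5 ± 0.832 TPM and HOXB6 at 20.8 ± 0.666 TPM. The silent member of the cluster was HOXB1. The HOXA cluster had 5 of 11 genes expressed (21.1 ± 4.21 TPM) and the HOXC cluster 3 of 9 (13.8 ± 2.50 TPM). All 9 HOXD genes on chromosome 2 had 0 counts in each library, and for HOXD10 a count of 0 allows up to 0.0701 TPM over the 3 libraries. HOXD1, HOXD3 and HOXD4 share most of their exonic bases with other genes (41.9%, 25.9% and 19.5% unshared), and the genes they overlap had at most 3 counts.

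Other lineage families were likewise held by few members. Of 9 PAX genes, PAX8 made up 97.2% of the TPM, PAX9 (1.61 ± 0.359 TPM) and PAX6 (1.31 ± 0.0256 TPM) were just expressed, and PAX1, PAX2, PAX3, PAX4, PAX5 and PAX7 had 0 counts. SOX17 made up 66.6% of the TPM of 19 SOX genes, 10 of which were expressed. Of 6 GATA genes, GATA6 (19.9 ± 2.57 TPM), GATA2 (12.2 ± 2.31 TPM) and GATA5 (1.56 ± 0.290 TPM) were expressed and GATA4 had 0 counts. Of 44 forkhead genes, 19 were expressed, led by the mitotic regulator FOXM1 (76.2 ± 1.09 TPM), FOXK2 (51.9 ± 2.80 TPM) and FOXC1 (42.6 ± 7.01 TPM). The epithelial factors GRHL2 (34.9 ± 0.182 TPM), OVOL2 (19.9 ± 1.88 TPM), OVOL1 (16.7 ± 1.25 TPM), KLF5 (80.7 ± 2.86 TPM) and ELF3 (53.5 ± 6.10 TPM) were expressed. They were picked from larger families and are not a list of their own. Expressed were 7 of 10 TFAP2 and GRHL genes (70.0%), 17 of 27 KLF and SP genes (63.0%) and 19 of 28 ETS genes (67.9%). Of the 8 EMT factors, SNAI1 (16.1 ± 1.15 TPM) and SNAI3 (2.96 ± 0.517 TPM) were expressed, ZEB1 was at 0.0221 TPM and ZEB2 at 0.00202 TPM on average, and SNAI2, TWIST1, TWIST2 and PRRX1 had 0 counts in each library. For these 4 genes a count of 0 allows up to 0.0556, 0.0928, 0.1 and 0.0229 TPM over the 3 libraries.

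The driver and repair genes of serous carcinoma were expressed without exception, 25 of 25, beside 59.3% of protein-coding genes. Their median was 34.0 TPM, against 4.5 TPM over all protein-coding genes and 20.2 TPM over the expressed ones. Mitotic and DNA replication genes, listed below, were likewise all expressed. Cyclin E1, CCNE1, which drives entry into S phase, was the highest at 250.4, 277.5 and 263.0 TPM, followed by the cell cycle inhibitor CDKN2A (219.1 ± 5.60 TPM), cyclin D1, CCND1 (211.9 ± 3.99 TPM), the repair enzyme PARP1 (107.8 ± 1.73 TPM) and CDKN2B (97.2 ± 19.7 TPM). CCNE1 lay above CDKN2A and CCND1 in each library, while the ranges of CDKN2A (212.6 to 223.0 TPM) and CCND1 (208.5 to 216.3 TPM) overlapped. CDKN2B was at 74.5 TPM in replicate 1 and at 110.3 and 106.9 TPM in the others. Counts per gene do not show mutations or copy number, and none were read here.

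Genes of growth and division were uniformly present, where 59.3% of all protein-coding genes were expressed. All 15 mitotic genes were expressed, with a median of 128 TPM, led by CDC20 (497.8 ± 5.88 TPM), UBE2C (464.5 ± 16.2 TPM) and TPX2 (383.7 ± 5.23 TPM), and all 15 DNA replication genes, with a median of 66.7 TPM, led by PCNA (479.2 ± 7.11 TPM) and MCM7 (323.4 ± 12.4 TPM). All 17 glycolysis enzymes were expressed and held 0.991% of TPM. All 13 sterol and lipid synthesis genes were expressed, led by SCD (424.8 ± 34.0 TPM) and FASN (352.2 ± 14.8 TPM), as were all 12 genes of the ATF4 and endoplasmic reticulum stress list, led by the chaperone HSPA5 (577.2 ± 15.4 TPM). Of 11 metallothioneins, metal-binding proteins with near-identical sequences, 7 were expressed, and MT2A was at 415.4, 568.9 and 659.6 TPM.

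MPZL3, the immunoglobulin-domain protein that the series targets elsewhere, lies at chr11:118226690-118252350 on the minus strand and was at 21.4, 24.8 and 23.5 TPM (403, 648 and 427 counts) in these control libraries, above the median of expressed protein-coding genes. Its relatives MPZL2 (64.2 ± 7.99 TPM) and MPZL1 (51.8 ± 4.28 TPM) were higher in every library.

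Olfactory receptors, taste receptors and cancer-testis antigens were mostly silent, where 59.3% of all protein-coding genes were expressed. Of 381 olfactory receptors, 359 had 0 counts (94.2%, beside 18.9% of protein-coding genes), and OR2A7 alone was expressed, at 5.955 ± 1.504 TPM. Of 27 taste receptors, 14 were silent and 1 was expressed, TAS1R3 (1.95 ± 0.659 TPM). Of 79 cancer-testis antigens, genes normally confined to the germ line, 60 were silent (75.9%) and 5 were expressed, namely LAGE3 (157.5 ± 7.92 TPM), ATAD2 (69.4 ± 2.08 TPM), PRAME (25.7 ± 1.23 TPM), MAGEA3 (3.40 ± 0.561 TPM) and MAGEC2 (3.01 ± 0.666 TPM). LAGE3 and ATAD2 are also active in normal dividing tissue, and MAGEA3 has the near-identical copy MAGEA6, so its level is uncertain. Imprinted genes were split, with 12 of 22 expressed, led by GNAS (336.8 ± 4.98 TPM), PEG10 (119.3 ± 1.39 TPM), MEST (85.1 ± 8.59 TPM), PHLDA2 (57.6 ± 12.2 TPM) and PLAGL1 (22.8 ± 2.64 TPM), and 9 silent, among them MEG3, DLK1, PEG3 and IGF2, of which 25% of the exonic bases are unshared. Of 509 numbered zinc finger genes, 34 were silent (6.68%) and 384 were expressed (75.4%), with a median of 4.47 TPM.

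A count of 0 does not show that a gene was off where its exons are shared with another annotated gene. EEF1G, an elongation factor subunit that cells need, had 0 counts in each library, and 0.0736% of its exonic bases are unshared with another annotated gene. CD68, a lysosomal protein, also had 0 counts, with 14.2% of its bases unshared, so its 0 is no measure of macrophage transcripts. Of 1894 genes of any type without an unshared base, 1851 had 0 counts. Among the 3761 silent protein-coding genes, 404 (10.7%) had fewer than 10% of their bases unshared, beside 525 of 19951 protein-coding genes (2.63%). With at least 100 unshared bases required, 3395 silent genes were left.

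Expressed genes with an annotated promoter window were mostly rich in CG dinucleotides. Over 300-base windows from 250 bases before to 50 bases after the RefSeq start, a window was called CpG-rich at a GC content of at least 50% and an observed over expected CG ratio of at least 0.6. Of the 9731 expressed genes with a window (85.3% of 11413 expressed genes outside mitochondrial DNA, chromosomes 8 and Y), 7900 were CpG-rich (81.2%), and of the 1228 genes at a mean of 100 TPM and above with a window 1064 were (86.6%), beside 9869 of 15446 protein-coding genes with a window (63.9%). The same check on silent genes is void, because 72.2% of them had a window, below the 80% that was required. The windows of PAX8 and WT1 were not CpG-rich by this rule, with observed over expected ratios of 0.483 and 0.575, and that of TWIST2 was, at 0.871.

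The level of most genes was close between the libraries, and secreted inflammatory genes were among those that differed most. Over 9741 protein-coding genes at a mean of at least 5 TPM, 79 (0.811%) differed by at least 2-fold between the highest and the lowest library after TMM scaling, and the median ratio was 1.13. Of these 79, 61 were lowest in replicate 1, and 47 were highest in replicate 3. Between replicates 2 and 3, 8 of the 9741 genes differed by at least 2-fold, with a median ratio of 1.05, although a ratio over fewer libraries is smaller by construction. Over all 12221 protein-coding genes at a mean of at least 1 TPM, 4981 were lowest in replicate 1 (40.8%). In a bulk library, fewer cells in a state and less RNA per cell cannot be told apart.

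All 14 NF-kB and inflammatory genes with a mean of at least 1 TPM were lowest in replicate 1, beside 40.8% of protein-coding genes. Of the 10 measured at 5 TPM or more, 5 differed by at least 2-fold, beside 0.811% of protein-coding genes. Their median ratio was 2.14, beside 1.13. The gene lists were chosen with earlier results of these data known, so these counts describe the list and are no independent support. Between replicates 2 and 3 the median ratio of these 10 genes was 1.09 and none differed by 2-fold. CXCL1, which attracts neutrophils, was at 55.8, 185.3 and 199.8 TPM, CCL2, which attracts monocytes, at 49.4 TPM in replicate 1 and at 104.8 TPM or more in the others, and the chemokine CXCL8 at 29.6, 82.7 and 79.3 TPM. NFKBIA, the NF-kB inhibitor that NF-kB itself induces, was at 76.2, 81.8 and 88.3 TPM. Interferon-stimulated genes showed the same library order, with 22 of 23 lowest in replicate 1 and a median ratio of 1.51, or 1.17 without replicate 1, and ISG15 was at 96.4, 142.6 and 168.5 TPM. The serous marker list had 18 of 33 genes lowest in replicate 1 and a median ratio of 1.14. What set replicate 1 apart was not tested.

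**Figure D5:**
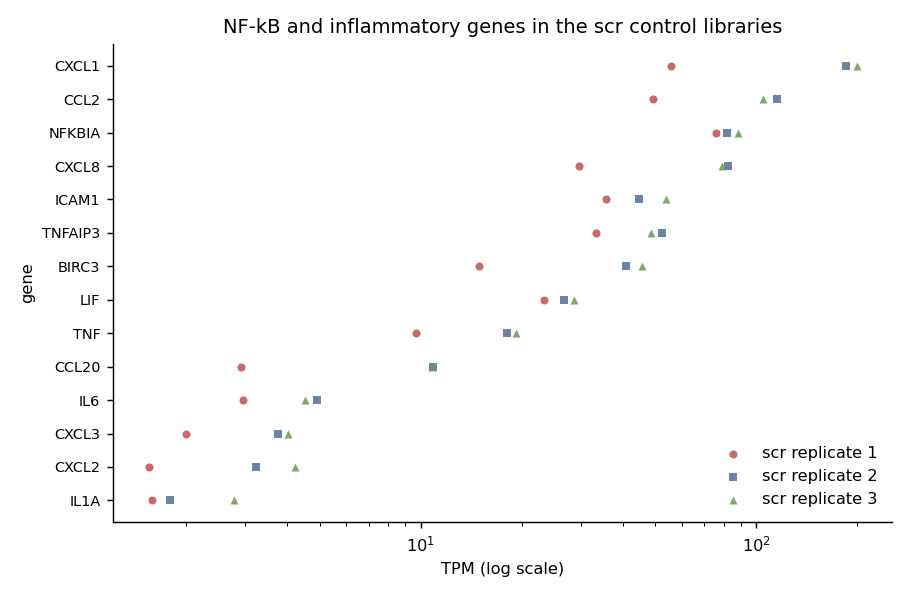
Levels of the 14 NF-kB and inflammatory genes with a mean of at least 1 TPM, on a log axis, with a point for each scr control library. The point of replicate 1 is the lowest for each of the 14 genes, with CXCL1 at 55.8 TPM against 185.3 and 199.8 TPM.

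The 10 protein-coding genes with the highest ratio between libraries included acute-phase proteins and genes with near-identical copies. The acute-phase proteins SAA1 (3.18, 19.1 and 23.6 TPM, ratio 7.42) and SAA2 (2.94, 7.37 and 12.4 TPM, ratio 4.21), themselves close copies of each other, the chemokine CCL20 (2.91, 10.9 and 10.8 TPM, ratio 3.72), the iron-chelator-binding LCN2 (42.5, 110.7 and 152.6 TPM, ratio 3.59) and PDZK1IP1 (2.64, 9.73 and 13.7 TPM, ratio 5.18) were low in replicate 1. EMC6, with 25.7% of its bases unshared, had 7, 41 and 35 counts. EIF3CL (80.4, 7.38 and 7.14 TPM, ratio 11.3), SMN1 (35.9, 33.9 and 5.71 TPM, ratio 6.28) and CBS (25.1, 6.88 and 5.15 TPM, ratio 4.87) each have a near-identical copy to which reads can be assigned. Summed with the copy, SMN1 and SMN2 were at 43.0, 40.3 and 24.6 TPM, a ratio of 1.75, and CBS and CBSL at 32.3, 13.9 and 23.04 TPM, a ratio of 2.32. EIF3C and EIF3CL together were at 101.9, 48.7 and 19.2 TPM, and the levels of these genes are uncertain. The histone gene HIST1H3F, which had 23, 9 and 6 counts, was highest in replicate 1.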

How the data were processed

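RNA-seq was carried out by the authors on OVCAR4 cells in 3 biological replicates per condition. Per the labels, mRNA was captured on poly-T beads and libraries were non-directional. The submitters' processing notes name HISAT2 2.0.5, featureCounts 1.5.0-p3 and hg38. How reads that hit several genes or places were treated is not given in the sources used here. The deposited values are raw counts per gene, and all 58735 genes matched GENCODE release 29 in identifier, position and length.

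TPM was computed from the deposited counts and lengths with pandas 2.3.3, and TMM factors, filterByExpr and the biological coefficient of variation with edgeR 4.0.16, tested on simulated data. No groups were compared and no test was run. Alternatives changed thresholds, scaling (DESeq2 1.42.0), depth, gene length and the libraries used. The floor of 3 counts is 0.138 to 0.199 CPM, for counting error only.

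The members and the 71 gene lists were chosen with earlier results of these data known. Named were the 5 markers, the 25 most abundant nuclear protein-coding genes, the 12 highest factors of the 16 families, the 10 genes with the highest ratio between libraries (mean TPM of at least 5), the 5 highest noncoding genes, up to 5 of the highest members of a list, markers at 0 counts and MPZL3. FOSL2, ID1, MYBL2 and low defining markers (PTPRC, KDR, TEK, FOXJ1, ALB, GATA3, ZEB1 and ZEB2) were chosen after their values were seen. TGFBR1 and ELF3 were named for background and also fall outside this rule. Promoter windows came from RefSeq by symbol or synonym. Some list members are not reported here.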

Additional observations from a re-analysis of the deposited data

How the results depend on the processing

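Of 78 alternative values for the counts, shares and spread, 69 lay within 1.5 times the reported value or, for shares, within 1 SD of it. As a share of counts, the mitochondrially encoded mRNAs held 6.019% and the 100 most abundant genes 20.77%, and with mitochondrially encoded genes left out of the TPM the 100 most abundant held 20.37%. Over genes of all types, 167 of 10618 (1.57%) differed by at least 2-fold between libraries, 477 at a mean TPM of at least 1, and 81 at a mean TPM of at least 10. Leaving out 1 library gave 46 (replicate 1), 102 (replicate 2) and 93 (replicate 3), where a ratio over fewer libraries is smaller by construction, and a biological coefficient of variation from 0.0495 (without replicate 1) to 0.109 (without replicate 2). The number of expressed protein-coding genes ranged from 9476 at a TPM of at least 5 to 12501 at a TPM of at least 0.5, and was 11817 with counts thinned to the smallest library. Silent genes numbered 4841 at up to 3 counts over the 3 libraries. The length of the longest transcript moved the named levels by 0.766-fold (FTL) to 1.79-fold (KRT7). Unshared exonic length, chosen after seeing the data, moved them by 0.956-fold (IGFBP3) to 2.54-fold (FTH1). No paired analysis was possible because no groups were compared. A level in 3 libraries of 1 line and vector carries no error for other cultures or vectors.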
